A study of Caenorhabditis elegans with 2 samples.

Results

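The genes described here are 31 genes of Caenorhabditis elegans that build, pair and recombine meiotic chromosomes. They were listed by name for their roles in meiosis, with earlier results of these data known, and all 31 were found among the 19973 protein-coding genes of the Ensembl annotation of WBcel235, the build called ce11. They fall into 6 roles: the chromosome axis, cohesin, the central region of the synaptonemal complex, pairing centre proteins and kinases, the formation of double-strand breaks, and strand exchange with crossover formation and checkpoint control. All 31 lie on autosomes.

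In meiosis, homologous chromosomes find each other, align along their length and exchange DNA before they separate into gametes. In the worm, cohesin and proteins with a HORMA domain form an axis along each chromosome, zinc finger proteins bring homologues together at pairing centres, and the synaptonemal complex then joins the aligned axes. The topoisomerase-like protein SPO-11 cuts the DNA, and the recombinase RAD-51 repairs the cuts with the homologue as template. Only a small part of the repair sites become crossovers. These events take place in the germ line, which in an adult worm fills much of the body.

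The protein followed was ATHP-1, named for its AT hooks, short segments that bind the minor groove of AT-rich DNA, and its PHD finger, a fold that often reads histone tails. Chromatin was precipitated from worms of strain OP685, genotype unc-119(tm4063) III; wgIs685, in which an integrated transgene makes ATHP-1 with GFP and FLAG tags at its C terminus; the labels do not name the promoter that drives it. The sample descriptions name an antibody to GFP for the precipitation, while the antibody field of the labels reads athp-1. The single group held 2 biological replicates of young adults of mixed sex, taken 64 hours after bleaching and starvation at the L1 stage had put their growth in step, and there was no second genotype, stage or treatment to compare. Whole worms were used, so sites in germ cells and in somatic cells cannot be told apart, and gene expression was not analysed here. Whether any pattern is particular to ATHP-1 among tagged proteins was not tested, since no untagged or other tagged strain was part of these data.

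The deposited values are lists of peaks, each with a summit and a signal score that the authors' peak caller gave relative to a control. The reproducible list held 1649 peaks with signals between 105.6 and 1172 and a median of 143, and these were the 1649 strongest regions of the list called on both replicates together, the pooled list. The pooled list and the list of each replicate held 30000 regions each, which include background by the authors' own description. The lists give no read depth, so it is unknown, and no interval or floor is given. Scores are used only to rank regions within 1 list, with rank 1 the strongest. A gene is called bound here when a reproducible summit lay in its promoter window, which reaches from 500 bp before to 200 bp past any of its annotated 5′ ends.

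ATHP-1 was found at the promoters of 7 of the 31 meiotic chromosome genes (22.6%), against 4.71% of all protein-coding genes (941 of 19973) and 5.24% of those on autosomes (903 of 17242). The count depended on replicate 1: from the strongest regions of replicate 2 alone, without replicate 1, it was 2 of 31 (6.45%), against 5.00% of all genes, and rec-8, coh-3, coh-4, dsb-2 and cosa-1 were no longer called. The bound genes were rec-8, coh-3 and coh-4, which encode meiotic kleisins, the subunits that close the cohesin ring; syp-4, for a protein of the central region of the synaptonemal complex; dsb-2, for a factor needed to make double-strand breaks; cosa-1, for a cyclin-related protein that marks crossover sites; and brc-1, the worm counterpart of BRCA1. No summit was shared between members, so the 7 calls rest on 7 distinct summits. However, 4 of the 7 summits, those of rec-8, coh-3, coh-4 and syp-4, also lay in the promoter window of a neighbouring gene. The calls were also counted by role. Of the 4 cohesin genes 3 were bound, against 1 of 4 central region genes, 1 of 5 break formation genes, 2 of 7 genes of strand exchange, crossover and checkpoint, 0 of 5 axis genes and 0 of 6 genes of pairing centre proteins and kinases. With 5.24% of autosomal genes bound, 0 of 5 or 0 of 6 cannot be read as a low count. The 3 cohesin calls were all among those lost without replicate 1. With so few genes in a role, no difference between roles was tested.

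**Figure D1:**
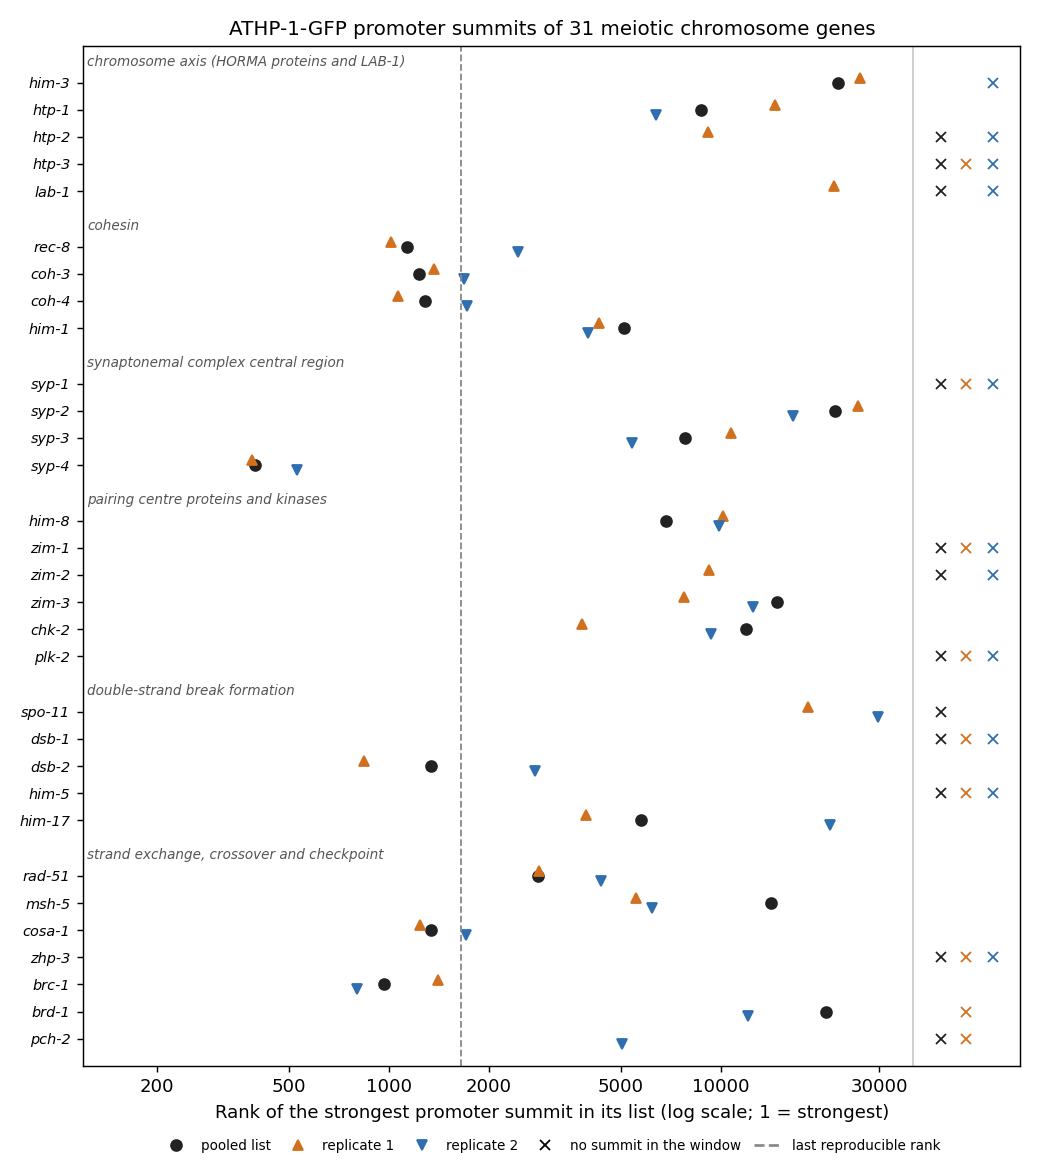
The rank of the strongest promoter summit of each of the 31 genes is plotted on a log axis for the pooled list (black circles), replicate 1 (orange triangles) and replicate 2 (blue inverted triangles), with crosses at the right where a list has no summit in the window. The 7 bound genes have pooled ranks between 396 and 1338, left of the dashed line at 1649, and the next gene, rad-51, follows at 2813.

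Sequence around the summits is shown first for the 3 bound kleisin genes and for dsb-2, because 3 of these 4 windows hold the same spaced word. All are given 5′ to 3′ on the strand of the gene, from the RefSeq genome sequence of WBcel235. The rec-8 sequence is chrIV:13353410-13353560 on the minus strand, the coh-3 sequence is chrV:14457166-14457316 on the plus strand and the dsb-2 sequence is chrII:14410878-14411028 on the plus strand, each with 75 bases to either side of the summit. The coh-4 sequence is chrV:4175785-4175881 on the minus strand and stops at 97 bases, where an exon of the neighbouring gene pid-5 begins. Capitals mark the AT run AAATTT, the word TTTGAA or its complement TTCAAA, the B box letters GGTTCGA and the gapped word described with the motifs.
rec-8: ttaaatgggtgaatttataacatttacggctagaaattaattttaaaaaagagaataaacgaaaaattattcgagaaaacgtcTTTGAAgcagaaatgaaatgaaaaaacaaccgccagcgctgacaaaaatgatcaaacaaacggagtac
coh-3: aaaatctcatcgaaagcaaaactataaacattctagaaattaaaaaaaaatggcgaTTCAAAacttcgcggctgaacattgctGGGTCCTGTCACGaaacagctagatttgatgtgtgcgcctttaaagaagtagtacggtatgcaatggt
coh-4: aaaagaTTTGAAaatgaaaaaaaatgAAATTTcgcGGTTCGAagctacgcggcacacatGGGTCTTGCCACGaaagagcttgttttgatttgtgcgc
dsb-2: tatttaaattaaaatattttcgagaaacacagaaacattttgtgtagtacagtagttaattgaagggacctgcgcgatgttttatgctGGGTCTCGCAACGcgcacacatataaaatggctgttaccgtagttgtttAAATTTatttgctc

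The sequences at cosa-1 and brc-1 show how much base composition varied among the bound members. The cosa-1 stretch, chrIII:2725670-2725820 on the plus strand, is 27.2% G and C, and the brc-1 stretch, chrIII:3863073-3863223 on the minus strand, is 60.9% G and C. Capitals mark the AT run AAATTT, the word TTCAAA, and TCTCTC, the complement of the GA repeat GAGAGA.
cosa-1: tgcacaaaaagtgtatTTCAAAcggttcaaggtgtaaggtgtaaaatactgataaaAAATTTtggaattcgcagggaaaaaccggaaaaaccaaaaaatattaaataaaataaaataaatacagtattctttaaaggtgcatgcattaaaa
brc-1: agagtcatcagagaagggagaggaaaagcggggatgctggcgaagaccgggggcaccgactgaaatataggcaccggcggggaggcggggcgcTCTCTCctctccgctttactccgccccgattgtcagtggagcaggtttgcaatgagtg

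Cohesin was the role with the most bound genes. REC-8 is the kleisin that also holds sister chromatids together until the second division. The summit of rec-8 (WBGene00004333) lay 292 bp upstream of the nearest 5′ end, in a peak at chrIV:13353275-13353694. It had rank 1135 and signal 124 in the pooled list, rank 1013 and signal 65.8 in replicate 1, and rank 2451 and signal 50.7 in replicate 2. The site was thus among the 1649 strongest regions in replicate 1 and outside them in replicate 2, and the replicate summits were 21 bp apart.

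COH-3 and COH-4 are closely related kleisins that act together in meiotic prophase beside REC-8. The coh-3 (WBGene00000592) summit, 181 bp upstream in a peak at chrV:14457031-14457450, had rank 1234 and signal 120 in the pooled list. It had rank 1364 in replicate 1 and 1689 in replicate 2, with signals of 58.3 and 59.3. The coh-4 (WBGene00021560) summit, 220 bp upstream in a peak at chrV:4175650-4176069, had rank 1282 and signal 118 in the pooled list, rank 1068 in replicate 1 and rank 1721 in replicate 2, with signals of 64.3 and 58.9. These genes lie 10281781 bp apart on chromosome V and on opposite strands, so the peaks are separate sites, and their pooled ranks were next to each other among the bound members. Global alignment of the 301 bases around each summit gave 57.9% identity for coh-3 and coh-4, the highest of the 21 pairs of bound members, whose lowest was 46.5%. Their windows also shared the longest exact run of any pair, 17 bases, though dsb-2 and cosa-1 shared a run of 16.

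The fourth cohesin gene, him-1 (WBGene00001860), encodes the SMC1 subunit, which mitotic cells use as well. It was not bound, but had a weaker promoter summit in every list, at rank 5129 with a signal of 62.7 in the pooled list, rank 4308 in replicate 1 and rank 3980 in replicate 2. These 3 summits did not coincide: the pooled summit lay 21 bp downstream of a 5′ end, the replicate 2 summit 56 bp downstream and the replicate 1 summit 182 bp upstream. All 4 cohesin genes therefore had a promoter summit in both replicates and the pooled list.

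Among the central region proteins, syp-4 (WBGene00019247) was bound and carried the strongest summit of all 31 genes. Its peak, at chrI:6847068-6847487 with the summit 233 bp upstream, had rank 396 and signal 187 in the pooled list, rank 388 and signal 92.0 in replicate 1, and rank 529 and signal 94.7 in replicate 2. It was 1 of 2 members, with brc-1, among the 1649 strongest regions of each replicate. The summit fell within the small nuclear RNA gene H27M09.6 and an exon of the noncoding RNA gene H27M09.7, and how much of the signal belongs to these genes was not tested. Of the 7 bound members, syp-4 was the 1 whose summit had a small RNA gene (tRNA, snoRNA or snRNA) within 200 bp. For the others the nearest such gene was between 5947 and 134750 bp away.

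The other 3 central region genes were not bound. The syp-3 promoter (WBGene00006377) had rank 7794 in the pooled list, 10738 in replicate 1 and 5390 in replicate 2, and syp-2 (WBGene00006376) had ranks of 22081, 25943 and 16563. No list held a summit in the window of syp-1 (WBGene00006375), although a reproducible peak of rank 963 lay 2519 bp upstream of it. The 4 proteins depend on one another for assembly of the complex, and their promoters ran through the range from rank 396 to no summit at all.

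Break formation had 1 bound gene. DSB-1 and DSB-2 are related proteins that promote cutting by SPO-11. The dsb-2 (WBGene00194892) summit lay 142 bp upstream in a peak at chrII:14410743-14411162, with rank 1336 and signal 116 in the pooled list. It had rank 842 and signal 70.3 in replicate 1 but rank 2749 and signal 48.2 in replicate 2, the weakest place of any bound member in either replicate. No list held a summit in the window of dsb-1 (WBGene00008580). For spo-11 (WBGene00004985) itself the pooled list held none, replicate 1 held a region of rank 18257 and replicate 2 one of rank 29800, close to the end of the list. him-17 (WBGene00001874), for a chromatin-associated protein needed for breaks, stood at rank 5761 in the pooled list, 3929 in replicate 1 and 21284 in replicate 2. him-5 (WBGene00001864), needed for breaks on the X chromosome, had no summit in any list.

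In the group of strand exchange, crossover and checkpoint genes, cosa-1 and brc-1 were bound. The cosa-1 (WBGene00022172) summit was the farthest upstream of the 7, at 371 bp, in a peak at chrIII:2725535-2725954. It had rank 1338 and signal 116 in the pooled list, rank 1242 and signal 60.6 in replicate 1, and rank 1712 and signal 59.0 in replicate 2. This summit lay in an intron of cox-6B, a gene for a subunit of cytochrome c oxidase, and the peak was the weakest of the 7 by a small margin over dsb-2. BRC-1 acts in the repair of breaks, in worms as in mammals, and forms a ubiquitin ligase with BRD-1. The brc-1 (WBGene00000264) summit lay 180 bp upstream in a peak at chrIII:3862938-3863357, with rank 964 and signal 134 in the pooled list, rank 1408 and signal 57.5 in replicate 1, and rank 803 and signal 79.9 in replicate 2. It was the only bound member placed higher in replicate 2 than in replicate 1. Its partner brd-1 (WBGene00000265) was not bound at its promoter, with rank 20746 in the pooled list, rank 12052 in replicate 2 and no summit in replicate 1.

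rad-51 (WBGene00004297) came closest to the reproducible list among the unbound members. Its summit, 449 bp upstream in the pooled list, had rank 2813 there, rank 2836 in replicate 1 and rank 4357 in replicate 2, and the 3 summits lay within 19 bp of one another. Its pooled signal of 82.2 compares with 116 for cosa-1, the weakest bound member, and with 105.6 for the weakest reproducible peak. msh-5 (WBGene00003421), for a subunit of the MutS-related complex that stabilises crossover intermediates, had rank 14202 in the pooled list, 5538 in replicate 1 and 6218 in replicate 2. pch-2 (WBGene00008641), the worm TRIP13, an ATPase that remodels HORMA proteins, had a region of rank 5030 in replicate 2 and none in the other lists. zhp-3 (WBGene00006976), for a RING finger protein of crossover sites, had none in any list.

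None of the 5 axis genes was bound. htp-1 (WBGene00002032) was the best placed, with rank 8706 in the pooled list, 14583 in replicate 1 and 6372 in replicate 2, at summits 144 to 192 bp downstream of its 5′ end. him-3 (WBGene00001862) had rank 22618 in the pooled list and 26224 in replicate 1, with none in replicate 2. htp-2 (WBGene00002033) and lab-1 (WBGene00007278), for a protein that protects cohesion on the long arms of bivalents, had regions in replicate 1 alone, at ranks 9166 and 21937. htp-3 (WBGene00002034), for the HORMA protein that recruits the others to the axis, had none in any list. HTP-1 and HTP-2 are highly similar proteins, and their promoters differed in whether the pooled list held a region at all.

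None of the 6 genes of pairing centre proteins and kinases was bound either. HIM-8 marks the pairing centre of the X chromosome and ZIM-1, ZIM-2 and ZIM-3 those of the autosomes, and the 4 genes form a cluster on chromosome IV on the same strand. him-8 (WBGene00001867) had pooled rank 6850, and ranks of 10145 in replicate 1 and 9857 in replicate 2. zim-3 (WBGene00011601) had pooled rank 14780, and ranks of 7757 in replicate 1 and 12526 in replicate 2. zim-2 (WBGene00011600) had a region in replicate 1 alone, at rank 9202, and zim-1 (WBGene00011597) had none. The nearest reproducible peak lay 43221 bp upstream of zim-1, so the whole cluster was free of reproducible peaks. Of the kinases that regulate pairing, chk-2 (WBGene00000499) had rank 11894 in the pooled list, 3822 in replicate 1 and 9348 in replicate 2, with the replicate 1 summit 306 bp upstream and the replicate 2 summit 131 bp downstream. plk-2 (WBGene00004043) had none in any list.

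The bound members sat low in the reproducible list. Of the 7, 6 were outside its 824 strongest peaks, against 430 of the 941 bound genes (45.7%). The members' median rank was 1234, against 735 over all bound genes, and their median signal was 120, against 150. Their summits lay a median of 220 bp upstream (quartiles -262.5 and -180.5 bp), against 181 bp upstream for all bound genes (quartiles -291 and -72 bp), and all 7 were upstream of the nearest 5′ end. The bounds of the window largely set these distances. All 7 peaks were 420 bp wide, the median width over all bound genes, and all 7 had the value 3.44 for the negative log10 of q. This value was not particular to them, as the peak of scc-2, a further meiosis gene, had it too at a signal of 320.

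Followed down the pooled list, most of the members' sites came late. Among the 250 strongest regions 0 members had a promoter summit, against 0.896% of all genes. Among the 500 strongest 1 member had one (3.23%), against 1.7% of all genes, and among the 1000 strongest 2 (6.45%), against 3.06% of all genes. The other 5 bound members entered between rank 1000 and rank 1649. From there rad-51 alone was added down to the 5000 strongest regions, where 8 members (25.8%) had a summit, against 10.9% of all genes. In the whole pooled list 19 of 31 members (61.3%) had a region in the window, against 30.7% of all genes. The 12 unbound members among them had pooled ranks from 2813 to 22618 and a median of 10300, near the median of 11051 over the 5199 unbound genes with such a region.

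**Figure D2:**
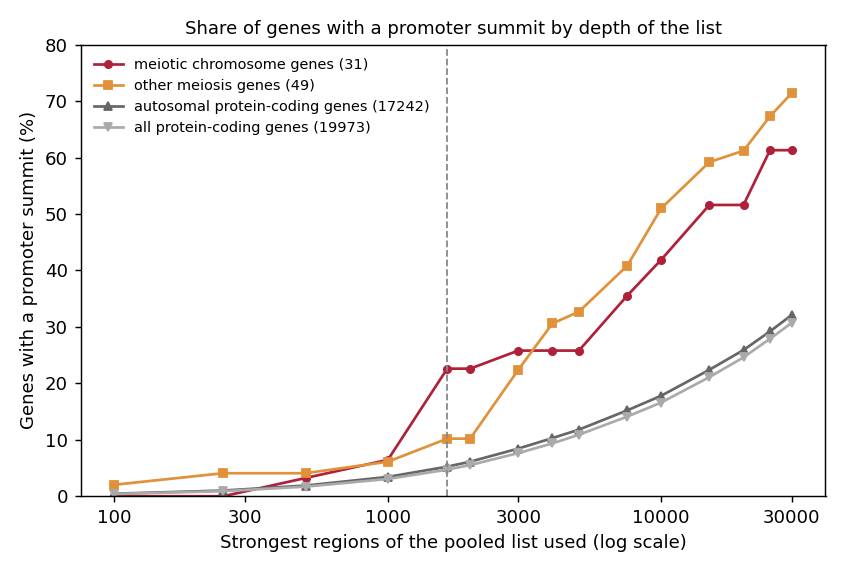
The share of genes with a promoter summit (percent, vertical axis) is drawn against the number of strongest pooled regions used (log axis) for the 31 meiotic chromosome genes, the 49 other meiosis genes, autosomal genes and all genes. The line of the 31 genes steps to 22.6% at the end of the reproducible list (dashed, 1649), and the line of the other meiosis genes stands at 10.2% there and is above it at 5000 regions, at 32.7% against 25.8%.

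Most of the bound members stood higher in replicate 1 than in replicate 2. When each replicate was cut to its 1649 strongest regions, replicate 1 placed 7 members (22.6%) against 4.20% of all genes, and replicate 2 placed 2 (6.45%). The 7 of replicate 1 were the same genes as the 7 bound members. The 2 of replicate 2 were syp-4 and brc-1, while coh-3, cosa-1 and coh-4 stood just past the limit, at ranks 1689, 1712 and 1721, and rec-8 and dsb-2 further down, at 2451 and 2749. Thus 6 of 7 bound members ranked higher in replicate 1, against 348 of the 928 bound genes with a summit in both replicates. The fold between a gene's 2 ranks had a median of 1.61 for bound members, against 2.02 for all bound genes, and their replicate summits lay a median of 34 bp apart, against 31 bp. In the 11 unbound members with a region in both replicates the summits lay a median of 238 bp apart. Over all 3984 genes with a region in both, bound genes included, the median was 77 bp, and unbound genes were not counted apart. The members' share from replicate 2 alone was thus close to the 5.00% of all genes.

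Counting a region of any rank, 22 members (71.0%) had one in replicate 1 against 29.8% of all genes, and 20 members (64.5%) had one in replicate 2 against 31.6%. In replicate 1, replicate 2 and the pooled list together, 17 members (54.8%) had one, against 18.9%. This count asks for a region in the window in each list, not for the same site. The strongest summits of the 3 lists ranged over 19 bp at rad-51 but over 489 bp at syp-2. Across the 18 members with a region in both replicates, Spearman's rho between the ranks was 0.798, and across the 3984 genes of that kind it was 0.605. These are correlations across genes, which are not independent replicates, and both lists were called against a control. At the other end, 7 of the 31 members had no region in the window in any list: htp-3, syp-1, zim-1, plk-2, dsb-1, him-5 and zhp-3. The same share over all genes is not given here. Most genes had no such region in any single list, and in the pooled list 30.7% of all genes had one.

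**Figure D3:**
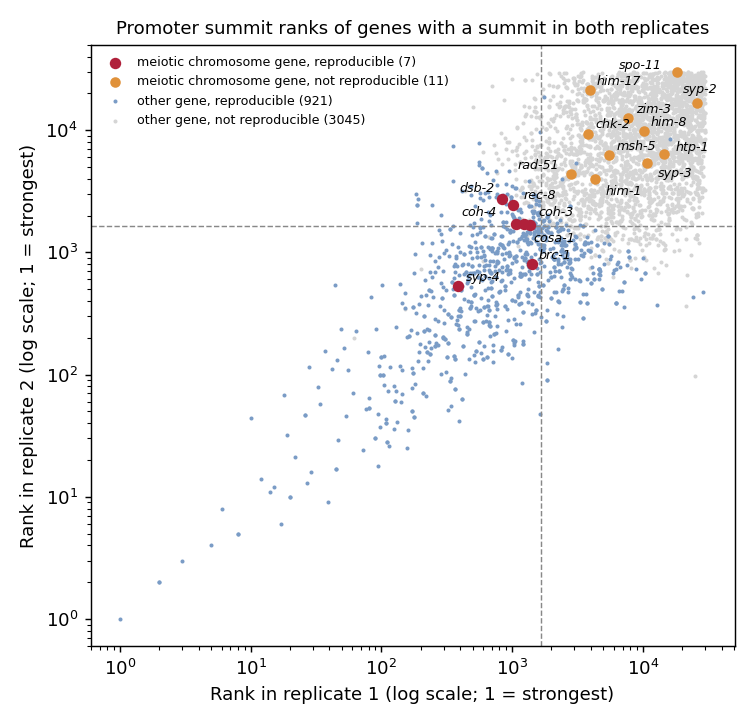
Each point is a gene with a promoter summit in both replicates, placed by its rank in replicate 1 (horizontal) and replicate 2 (vertical), both on log axes, with dashed lines at rank 1649. All 7 bound meiotic chromosome genes lie left of the vertical line, and 5 of the 7 lie above the horizontal one, with syp-4 and brc-1 below it.

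Promoters facing away from a neighbour were common among the members and held 4 of their 7 bound genes. The bound peaks of rec-8, coh-3, coh-4 and syp-4 each lay between the member and a gene on the opposite strand whose window held the same summit, so the signal cannot be assigned to one of the pair. rec-8 faces mex-5, which encodes a zinc finger RNA-binding protein of embryonic polarity. The summit lay 292 bp from rec-8 and 238 bp from mex-5, and their 5′ ends are 530 bp apart. coh-3 faces bmk-1, for a kinesin of the spindle, with 438 bp between the 5′ ends and the summit 181 bp from coh-3 and 257 bp from bmk-1. coh-4 faces pid-5, a gene of the piRNA pathway, with 242 bp between the 5′ ends. There the summit was closer to the neighbour, 22 bp from pid-5 and 220 bp from coh-4. syp-4 faces H27M09.5 across 552 bp, with the summit 233 bp from syp-4 and 319 bp from H27M09.5.

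Sharing of this kind was counted for all genes too. Of the bound members 4 of 7 (57.1%) shared their summit with another gene's window, against 363 of 941 bound genes (38.6%). Divergent pairs, with 5′ ends on opposite strands within 1000 bp, were then counted, a comparison chosen after the shared summits had been seen. They held 15 of the 31 members (48.4%), against 18.7% of all genes. Of the members in such pairs 4 of 15 (26.7%) were bound, against 11.1% of the 3729 genes in pairs. Of the members outside them 3 of 16 (18.8%) were bound, against 3.24% of the other 16244 genes. Without replicate 1 the count over both classes fell to 2 of the 31 members (6.45%), against 5.00% of all genes. Whether the layout of the promoters bears on the members' share was not tested. All 5 axis genes had a divergent neighbour, at 190 to 441 bp, and neither gene of any of these 5 pairs was bound.

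**Figure D4:**
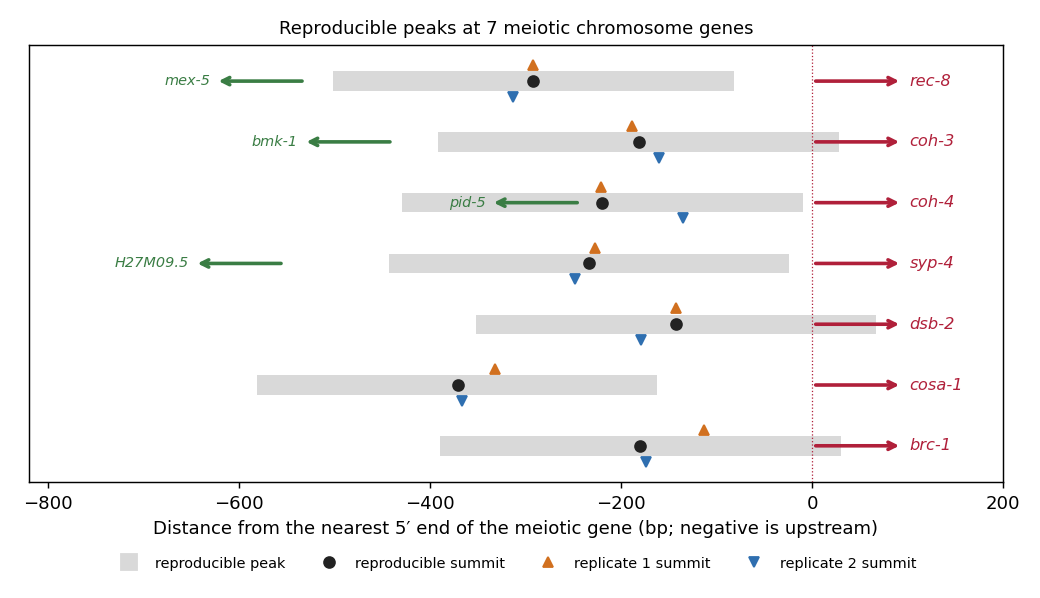
For each of the 7 bound genes the reproducible peak (grey bar), its summit (black circle) and the replicate summits (orange and blue triangles) are placed by distance in bp from the 5′ end of the meiotic gene, which is drawn as a red arrow, with a divergent neighbour as a green arrow. All 7 summits lie upstream of the 5′ end, between 142 and 371 bp, and 4 of them lie between the gene and a divergent neighbour.

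Outside the promoter windows, 2 of the 31 members held reproducible peaks within the gene. The same share over all genes was not counted, so neither this number nor the place of the peaks is read as a trait of the members. zhp-3 held 1 within its span, of rank 818 and signal 143, 1107 bp inside the gene from the nearest 5′ end. brd-1 held 2, of rank 616 and signal 160 at 1693 bp inside and of rank 1022 and signal 130 at 832 bp inside. All 3 were within 200 bp of an annotated tRNA gene, and none was in a promoter window. These genes were not counted as bound, and the peaks are given with the tRNA genes that they cannot be told apart from. Of the 24 unbound members 5 had a reproducible summit within 5000 bp of a 5′ end, a share of 20.8%, against 13.6% of all unbound genes and 14.4% of those on autosomes. The median distance to the nearest one was 27954.5 bp, against 29007 bp for all unbound genes and 27460.0 bp for those on autosomes.

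The wider meiotic machinery also held bound genes. A further list of 49 meiosis genes, for cohesin regulation, the synaptonemal complex and its control, end resection, strand exchange and resolution, and nuclear envelope attachment, had 5 bound (10.2%), against 4.71% of all genes and 5.24% of those on autosomes. scc-2, for the cohesin loader, had the strongest site of either list, with rank 76 and signal 320 in the pooled list, rank 141 in replicate 1 and rank 60 in replicate 2. Its summit lay 128 bp upstream of an internal 5′ end, inside the gene. syp-5 and syp-6, for further proteins of the central region, had ranks 223 and 1582 in the pooled list, 271 and 1585 in replicate 1, and 277 and 1462 in replicate 2. wapl-1, for the factor that releases cohesin, had rank 579 in the pooled list, 3505 in replicate 1 and 288 in replicate 2, so its place came mainly from replicate 2. plk-1, for the polo kinase related to PLK-2, had rank 1108 in the pooled list, 1465 in replicate 1 and 1477 in replicate 2.

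By role, 2 of 10 genes of cohesin and its regulation, 2 of 9 of the synaptonemal complex and its control, 0 of 12 of break formation and resection, 0 of 14 of strand exchange and resolution and 1 of 4 of envelope attachment were bound. Over all genes the share was 4.71%, and on autosomes 5.24%, so 0 of 12 or 0 of 14 cannot be read as a low count. The cohesin and synaptonemal complex roles, with 10 and 9 of the 49 genes, held 4 of the 5 bound genes. No difference between roles was tested here either. The wapl-1 summit was shared with htz-1, the gene of histone H2A.Z, and the syp-6 summit with mei-2, a gene for a subunit of the meiotic spindle protein katanin, both on the opposite strand. The order of the 2 lists changed with depth. At the 500 strongest pooled regions 1 of the 31 (3.23%) and 2 of the 49 (4.08%) had a promoter summit, against 1.7% of all genes. At 3000 the shares were 25.8% and 22.4%, against 7.64% of all genes. At 5000 they were 25.8% and 32.7%, against 10.9% of all genes, and over the whole list 61.3% and 71.4%, against 30.7% of all genes.

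The sequence under the bound members' summits was of mixed composition. In 301 bases centred on the summit, G and C made up 29.6% at dsb-2, 30.6% at cosa-1, 31.2% at rec-8, 33.2% at coh-3, 41.5% at coh-4, 47.5% at brc-1 and 52.5% at syp-4. The median was 33.2%, against 38.2% over the 783 reproducible promoter summits, and the 4 lowest values were below that median and the 3 highest above it. Promoters, taken as 250 bases before to 50 after the outermost 5′ end, had a median of 36.7% for the 7 bound members, 31.3% for the 24 unbound members and 34.3% for all genes.

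There were 6 short motifs searched on both strands in the same 301 bases. The AT run AAATTT was found at 5 of 7 members' summits, against 48.1% of the 783, and TTTGAA, the core of the CHR element of cell cycle promoters in mammals, at 5 of 7, against 54.5%. GAGAGA was found at 1 of 7, against 30.1%, and GGTTCGA, letters of the B box within tRNA genes, at 1 of 7, against 5.11%. GCGCGAA and GCGGGAA, forms of the E2F site, were found at 0 of 7, against 9.07% and 8.30%. In the promoters as defined above the AT run was in 5 of 7 bound members, 11 of 24 unbound members and 53.0% of all genes, and TTTGAA was in 4 of 7, 15 of 24 and 62.5%. GCGCGAA was in 0 of 7 and 2 of 24, against 1.92% of all genes, and GCGGGAA in 0 of 7 and 1 of 24, against 3.22%. GAGAGA was in 1 of 7 and 1 of 24, against 21.8%, and GGTTCGA in 1 of 7 and 0 of 24, against 1.42%. With 7 summits, a count of 5 against a share near 50% and a count of 0 against one near 9% differ by few sites.

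A longer word was noticed when the coh-3, coh-4 and dsb-2 sequences were set side by side. It reads GGGTC, then any 2 bases, then G, then any 2 bases, then ACG, 13 bases in all, and it was searched on both strands only after it had been seen, so the 3 genes that gave it are no evidence for it. Of the 8 sites in members' promoter windows 6 are shown, with 14 bases to either side, 5′ to 3′ on the strand that carries the word, with the word in capitals. They are chrV:14457235-14457275 (plus) at coh-3, chrV:4175796-4175836 (minus) at coh-4, chrII:14410952-14410992 (plus) at dsb-2, chrIV:12408800-12408840 (plus) at dsb-1, chrIV:10546793-10546833 (plus) at zim-1 and chrIV:13154789-13154829 (minus) at msh-5.
coh-3: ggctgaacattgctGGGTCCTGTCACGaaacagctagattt
coh-4: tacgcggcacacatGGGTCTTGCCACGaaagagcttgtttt
dsb-2: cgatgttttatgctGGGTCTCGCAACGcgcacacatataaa
dsb-1: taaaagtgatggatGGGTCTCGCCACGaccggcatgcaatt
zim-1: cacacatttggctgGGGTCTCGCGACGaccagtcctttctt
msh-5: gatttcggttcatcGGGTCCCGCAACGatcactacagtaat

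The word was found in the promoter window of 8 of the 31 members (25.8%), against 354 of 19973 genes (1.77%). Apart from coh-3, coh-4 and dsb-2 it was in 5 of 28 (17.9%): him-3, htp-3, zim-1, dsb-1 and msh-5. None of these 5 was bound, so within the members' promoter windows the word and a reproducible peak went together only at the genes that gave the word. Across all genes it was in 39 of the 941 bound (4.14%), against 315 of the 19032 unbound (1.66%). Of the 49 other meiosis genes 2 held it (4.08%), wapl-1 and the unbound prom-1, which is named here after its value was seen. A stricter form, GGGTC, any 2 bases, G, any base and CACG, was in 4 of 31 members (12.9%), and apart from the 3 genes that gave the word in 2 of 28 (7.14%), against 253 genes (1.27%).

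**Figure D5:**
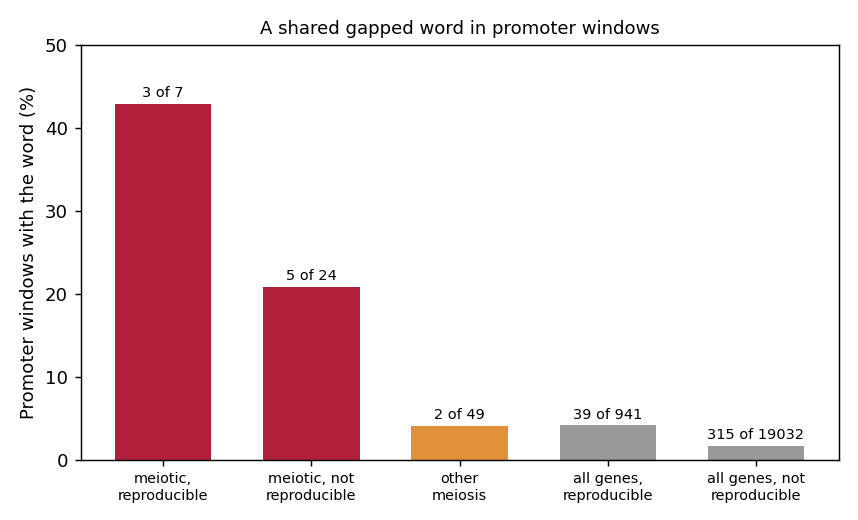
Bars give the percent of promoter windows that hold the gapped word in bound and unbound meiotic chromosome genes, the other meiosis genes, and all bound and all unbound genes, with the counts above each bar. The first bar, 3 of 7, consists of the 3 genes in which the word was noticed, and the second, 5 of 24 (20.8%), does not include them.

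The centre of the word was 14 bp from the summit at coh-3, 19 bp at dsb-2 and 44 bp at coh-4, which placed it 167, 123 and 176 bp upstream of the 5′ end. These short distances follow from how the word was found, in stretches centred on those summits. At wapl-1 it was 41 bp from the summit. The cosa-1 summit had the word 137 bp away, 508 bp upstream of the gene and so just outside its promoter window. Apart from the 3 genes that gave the word, it was within 150 bp of the summit at 1 of 4 bound members, against 25 of 780 reproducible promoter summits (3.21%). At the unbound members it stood between 105 bp upstream of the 5′ end, at dsb-1, and 424 bp upstream, at msh-5. There the nearest reproducible summit was at least 2938 bp away, and the nearest summit of the pooled list between 236 and 682 bp away. The word in a window is a match of letters, and no factor was assigned to it.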

How the data were processed

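ChIP-seq of GFP-tagged ATHP-1 in whole young adult worms was analysed from peak lists on ce11. Per the deposited readme text, the authors called peaks and background for each of 2 replicates and for both together, against a control, and thresholded a reproducible list by irreproducible discovery rate. Aligner, peak caller, threshold and depth: not given in the sources used here. The signal column is the authors' score per peak, and the q column is deposited as −log10 of q. The summit is the start plus the authors' offset in bp. Lists on ce10 were not used.

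Summits were matched to 29314 protein-coding 5′ ends of Ensembl release 115 with Python 3.11.15, pandas 2.3.3, numpy 2.4.6 and Biopython 1.88, and each gene kept its strongest summit per list. On simulated data the code recovered 200 of 200 implanted summits, and 400 of 400 gene and summit pairs matched an exhaustive search. No test was run: 1 group of 2 replicates allows none, and counts are set beside all genes. The members, the other meiosis genes and the motifs were chosen with earlier results of these data known. Genes named are all members, the bound genes of the second list and genes that share a summit with a member. Named outside this rule, after their values were seen, are htz-1 and mei-2, which share a summit with a gene of the second list, the genes that overlap a bound summit (cox-6B, H27M09.6, H27M09.7) and prom-1, which holds the gapped word. There were 9 alternatives, covering the window, the 5′ ends, the assignment, the peak list, the replicates and small RNA genes. The divergent pairs and the gapped word were chosen after the data had been seen. Sequences were read from the RefSeq genome of the same build. The replicates are labelled biological replicates, with no statement of separate cultures.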

Additional observations from a re-analysis of the deposited data

How the results depend on the processing

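Which members were counted depended on how far down the list and how far upstream the search went. With the 824 strongest peaks 1 member (3.23%) and 3 of the 49 other meiosis genes were bound, against 2.56% of all genes. With windows of 200 bp to each side 3 members were bound (9.68%, against 2.60%), and 7 rather than 17 had a region in both replicates and the pooled list. For the count of 7 the share of all genes is not given here, and a narrower window lowers it for any set of genes. From 1 replicate alone the members' count ran from 2 to 7, with 2 when replicate 1 was left out. The members' median distance of -220 bp was -233 bp with the 824 strongest peaks, -180 bp with the narrow window, -181 bp with the window of 1000 bp upstream to 500 bp downstream, and -200.5 bp without summits at small RNA genes; from single replicates it ran from -221 to -211 bp. The wide window and the outermost 5′ end each kept the same 7 members, but with the outermost 5′ end scc-2 was no longer called. Without replicate 1, 6 of the 49 other meiosis genes were called (12.2%) against 6.45% of the members, so the order of the 2 lists depended on the replicate. The strongest pooled regions are the reproducible list itself and check nothing. Giving a summit only to its nearest 5′ end left 5 (16.1%, against 3.80%), without rec-8 and coh-4, and leaving out summits at small RNA genes left 6 (19.4%, against 4.42%), without syp-4. No paired analysis was possible because there was only 1 group.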
